A study of Mus musculus with 45 samples.

Results

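The late step after OCT4 loss was measured as the change in chromatin accessibility between 6 h and 24 h of OCT4 depletion. It rests on 4 ATACseq libraries, 2 at each time, of the 45 samples in the series, of which 31 have a column in the count table. The cells were mouse embryonic stem cells (ESCs) of the OCT4-FKBP line, which the labels place on the V6.5 background and which the study obtained from another laboratory. In this line OCT4 carries an FKBP tag, and 500 nM dTAG-13 directs the tagged protein to degradation. The 6 h and 24 h groups both received dTAG-13, and the untreated group (NT) received DMSO. All groups, controls included, carried the tagged OCT4 and grew on gelatin, without serum, with LIF, an inhibitor of MEK and an inhibitor of GSK3. The number of fragments counted in a peak measures how accessible it was. All 27 libraries of the OCT4-FKBP, SOX2-FKBP and NANOG-FKBP lines at NT, 2 h, 6 h and 24 h were fitted together over 166430 peaks. The labels do not say whether replicates were separate cultures, so p-values measure the spread between libraries, which may be technical.

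OCT4, encoded by Pou5f1, is a POU family transcription factor that binds DNA beside SOX2 and keeps enhancers of the pluripotency network open. ESCs that lose OCT4 leave the pluripotent state and turn towards trophectoderm, the lineage of the placenta. In naive ESCs the network also holds ESRRB, NR5A2, KLF and ZIC factors, which bind motifs of their own. Changes that appear only long after a factor has gone can follow from other factors that depended on it, which accessibility alone cannot separate from direct effects.

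Of the largest falls 4 are shown here because their levels dropped furthest or because Esrrb is part of the naive network. Each line is the 200 bases centred on the summit of the peak, on the plus strand of mm10, read from the GRCm38 reference, with matches to 22 searched motifs in capitals. The Dusp1 window held a KLF match, a match to the SOX-POU core and SOX matches, the Esrrb window a KLF and a ZIC match, the St3gal3 window AP-1, OTX2, TCF/LEF, ZIC and NFY matches, and the Chac1 window a FOX match alone.
St3gal3, chr4:117950267-117950466: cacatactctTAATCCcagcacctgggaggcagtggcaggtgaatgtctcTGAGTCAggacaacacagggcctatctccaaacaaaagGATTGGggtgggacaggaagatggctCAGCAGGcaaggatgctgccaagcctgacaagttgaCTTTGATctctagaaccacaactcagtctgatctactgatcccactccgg
Chac1, chr2:119354739-119354938: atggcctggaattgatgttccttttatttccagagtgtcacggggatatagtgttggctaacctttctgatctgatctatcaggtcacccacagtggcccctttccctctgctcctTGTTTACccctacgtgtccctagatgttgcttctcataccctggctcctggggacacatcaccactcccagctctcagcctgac
Dusp1, chr17:26511371-26511570: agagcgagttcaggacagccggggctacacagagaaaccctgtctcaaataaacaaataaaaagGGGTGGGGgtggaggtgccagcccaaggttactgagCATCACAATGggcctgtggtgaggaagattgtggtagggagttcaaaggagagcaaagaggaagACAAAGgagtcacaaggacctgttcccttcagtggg
Esrrb, chr12:86497228-86497427: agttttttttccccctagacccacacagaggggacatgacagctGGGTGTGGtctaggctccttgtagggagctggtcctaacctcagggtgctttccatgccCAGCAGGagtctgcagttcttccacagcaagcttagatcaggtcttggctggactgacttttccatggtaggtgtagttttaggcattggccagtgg

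The 3 largest rises are shown in the same way. The Kank1 and Fat3 windows both held TEAD, TFAP2 and SOX matches, and the Fat3 window a GATA match as well, while the Mnd1 window held an AP-1 and an OTX2 match.
Mnd1, chr3:84103508-84103707: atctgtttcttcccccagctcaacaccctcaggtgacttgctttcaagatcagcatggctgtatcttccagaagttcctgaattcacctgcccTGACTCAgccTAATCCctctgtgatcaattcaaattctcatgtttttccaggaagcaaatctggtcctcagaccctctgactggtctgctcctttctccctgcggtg
Kank1, chr19:25273273-25273472: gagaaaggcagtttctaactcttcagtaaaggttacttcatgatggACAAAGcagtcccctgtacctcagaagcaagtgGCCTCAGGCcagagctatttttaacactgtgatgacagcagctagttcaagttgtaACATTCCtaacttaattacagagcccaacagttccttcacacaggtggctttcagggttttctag
Fat3, chr9:16077821-16078020: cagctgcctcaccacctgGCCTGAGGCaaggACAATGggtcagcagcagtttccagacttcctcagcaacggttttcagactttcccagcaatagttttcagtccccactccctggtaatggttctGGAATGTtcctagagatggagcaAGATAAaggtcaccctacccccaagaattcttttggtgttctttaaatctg

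Between 6 h and 24 h, 7471 of the 166430 peaks tested fell (4.49%) and 4862 rose (2.92%). The test was edgeR's quasi-likelihood test with Benjamini-Hochberg adjustment over all peaks and a threshold of 0.05 on the adjusted p. The falls had a median log2 fold change of -1.29, of which replicate 1 gave -1.31 and replicate 2 gave -1.18 (SD 0.0896, n = 2). The rises had a median of 1.03, with 1.01 and 0.896 in the replicates (SD 0.0804, n = 2), and the median over all peaks was -0.0023. Among the falls 6024 had a log2 fold change of -1 or lower, and among the rises 2586 had one of 1 or higher. Relative to NT, 4997 of the falls were also below at 24 h, and 4115 of the rises were above. When libraries were scaled by their total counts, 77.3% of the called peaks were falls, and with DESeq2's size factors 49.6% were, against 60.6% here. Adding the replicate number as a block to the fit gave 14393 falls and 12988 rises. The counts rested most on 2 libraries. Without 24 h replicate 1, 1628 peaks fell and 1127 rose, and without 6 h replicate 2, 4130 fell and 867 rose.

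Most of these peaks had not been called before 6 h. Not called in either direction at 2 h or at 6 h against NT were 5197 of the falls, or 3.12% of all peaks tested, and 4447 of the rises, or 2.67%. These late-only peaks had medians of -1.29 and 1.01. A peak not called early may still have moved early, since 2 libraries per time leave small changes undetected. With the further condition of a log2 fold change under 0.3 in size at both early times, 1590 falls and 2327 rises remained. The contrast of 6 h with NT shares the 6 h libraries with the contrast of 24 h with 6 h, whereas 2 h against NT shares no library with it. Without 24 h replicate 1 the late-only counts were 1068 and 887, without 6 h replicate 2 they were 2924 and 754, and with the replicate block they were 7538 and 10975.

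**Figure D1:**
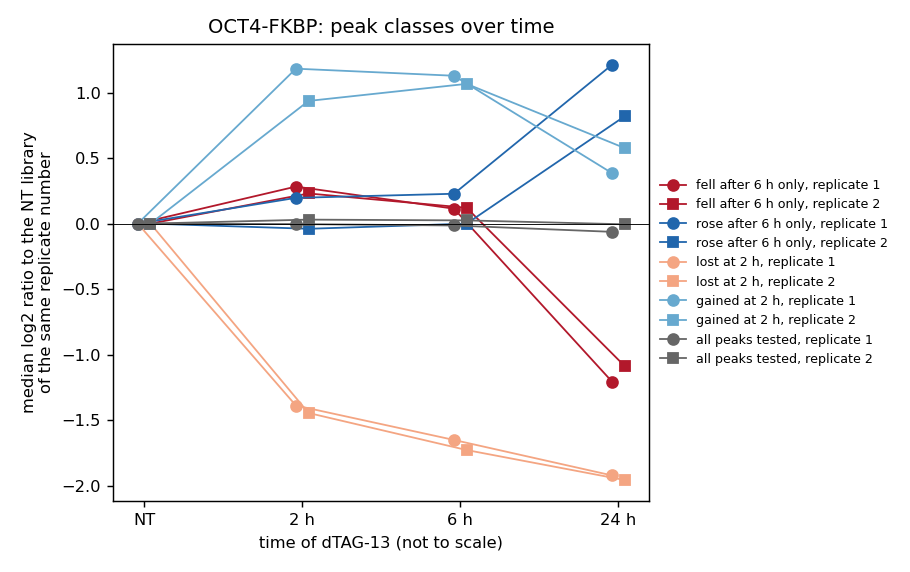
Median log2 ratio to the NT library of the same replicate number, for the late-only falls and rises, the peaks lost or gained at 2 h, and all peaks tested, at NT, 2 h, 6 h and 24 h (positions not to scale), with a circle for replicate 1 and a square for replicate 2. The late-only classes stay within 0.3 of NT up to 6 h and separate at 24 h in both replicates, as the calls that define them required, and the peaks gained at 2 h come partway back.

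The 24 h libraries were the shallowest of the line, with 7790459 and 6378962 counts in peaks against 17071452 and 16201344 at 6 h, so that a fall to a few counts was measured with little precision. Promoter peaks, those with a summit within 500 bp of an annotated start, held 34.2% and 33.7% of the counts in NT, 40.0% and 36.4% at 6 h and 47.5% and 41.5% at 24 h. The mitochondrial share was 4.07% and 2.3% at 6 h and 5.27% and 4.56% at 24 h. Chromosome 6 held 6.05% to 6.15% of the counts in every replicate 1 library of the line and 7.29% to 7.59% in every replicate 2 library. With an offset for each chromosome 7371 peaks fell and 5175 rose, and with every OCT4-FKBP library thinned to the shallowest 5559 fell and 3194 rose. The part of the mitochondrial and promoter shares in the changes described here was not tested. The starts of ESC marker genes were open at both times, which cannot decide the ESC label because some lineage promoters were as open. The promoter of Zfp42, a marker of undifferentiated cells, held 306 and 322 normalized counts at 6 h and 325 and 312 at 24 h, and that of Sox2 held 376 and 259 at 6 h and 490 and 290 at 24 h. That of Nanog held 223 and 213 at 6 h and 138 and 154 at 24 h, and the 21 promoter peaks of general pluripotency factors had a median log2 change of -0.325. Among lineage genes, the Sox1 promoter held 449 and 338 at 6 h and 634 and 375 at 24 h. The Eomes promoter held 364 and 300 at 6 h and 473 and 286 at 24 h. The Gata6 and Sox17 promoters held less than those of Zfp42, Sox2 and Nanog at both times.

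Among called peaks with at least 50 normalized counts at the higher time and no overlap between the libraries of the 2 times, the largest falls lay near genes of many kinds. A peak in an intron of St3gal3, which encodes a sialyltransferase, on chromosome 4 from 117950212 to 117950660, held 45.3 and 104 normalized counts at 6 h and 2.9 and 7.72 at 24 h, the latter from 2 and 5 raw counts. Both 24 h libraries lay below all 6 earlier libraries (34.3 to 104). Its log2 fold change was -3.80 (SE 0.53, adjusted p = 1.29e-05, edgeR), and the small raw counts leave the size of this fold uncertain. The intergenic peak near Chac1, which encodes an enzyme that degrades glutathione, lies on chromosome 2 from 119354794 to 119355033 and had first risen from 22.6 and 11.2 normalized counts in NT to 85.4 and 32.3 at 2 h. It stood at 74.7 and 39.9 at 6 h and fell to 4.35 and 4.63 at 24 h, from 3 raw counts in each library (log2 fold change -3.63, SE 0.69, adjusted p = 0.000694, edgeR). Chac1 thus belongs to the peaks that opened early and closed late.

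An intronic peak 2952 bp upstream of the nearest start of Dusp1, which encodes a phosphatase that inactivates MAP kinases, lies on chromosome 17 from 26510931 to 26511798. Its level was 212 and 220 normalized counts in NT, 179 and 190 at 2 h and 140 and 193 at 6 h. At 24 h it was 10.1 and 17, below the 6 earlier libraries (log2 fold change -3.62, SE 0.41, adjusted p = 7.35e-07, edgeR). It was not called at 2 h (log2 fold change -0.23, adjusted p = 0.811, edgeR), so it is a late-only peak. The intronic Esrrb peak on chromosome 12 from 86497059 to 86497496 behaved alike. It held 288 and 211 in NT, 255 and 254 at 2 h and 220 and 225 at 6 h, then 21.7 and 32.4 at 24 h (log2 fold change -3.04, SE 0.31, adjusted p = 2.22e-07, edgeR). ESRRB is an orphan nuclear receptor that holds ESCs in the naive state.

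The other 8 of the 12 largest falls lay near Celf4, Cenpj, Kiss1, Dcdc2c, Ap2m1, Chn2, Krt42 and Dynlt1b, with log2 fold changes between -3.61 and -2.92. Celf4 encodes an RNA-binding protein, Cenpj a centriole protein, Kiss1 the kisspeptin hormone, Ap2m1 a subunit of the clathrin adaptor and Chn2 a Rac GTPase-activating protein. Of the 12 peaks, 8 were late-only. The peaks near Chac1, Kiss1 and Ap2m1 were gained at 2 h, and the peak near Chn2 was lost at 6 h. At Ap2m1 the path ran from 33.5 and 55.8 normalized counts in NT to 130 and 140 at 2 h, 111 and 165 at 6 h and 18.8 and 13.9 at 24 h. At Chn2 it ran downwards throughout, from 222 and 304 in NT to 128 and 228 at 2 h, 90.6 and 134 at 6 h and 14.5 and 12.4 at 24 h.

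**Figure D2:**
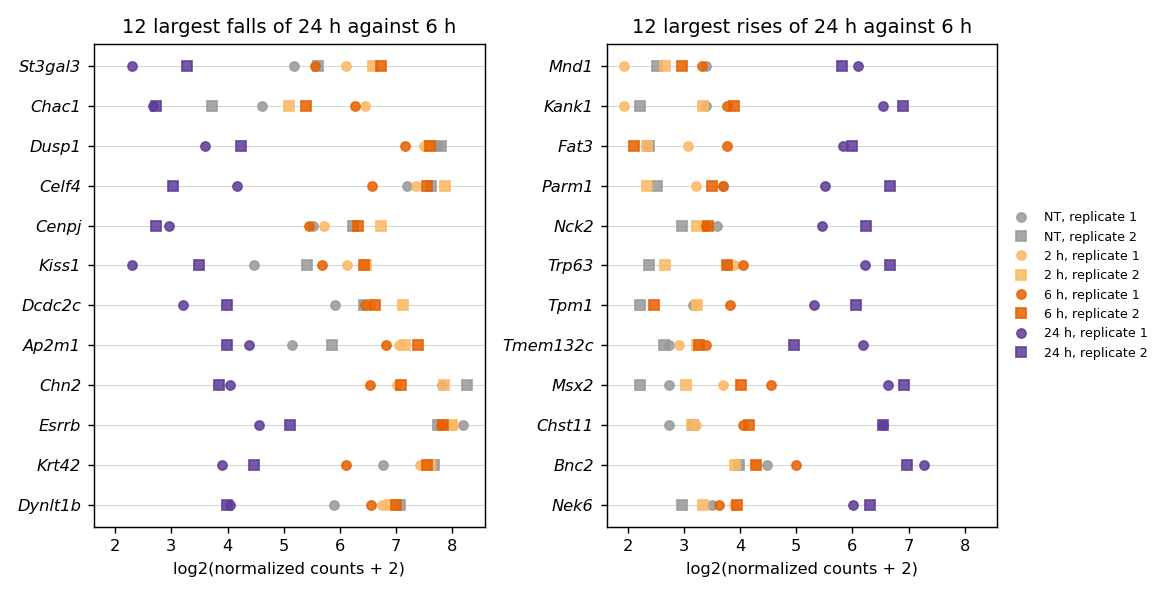
Normalized counts, as log2(count + 2), of the 12 largest falls (left) and 12 largest rises (right) in all 8 OCT4-FKBP libraries, coloured by time, with circles for replicate 1 and squares for replicate 2. The 24 h libraries stand apart from the 6 h libraries in each row, as the rule for choosing the peaks required, and in most rows from NT and 2 h as well.

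The 12 largest rises began from nearly closed positions. A peak in an intron of Mnd1, which encodes a protein of meiotic recombination, on chromosome 3 from 84103410 to 84103872, held 8.57 and 3.72 normalized counts in NT, 1.84 and 4.35 at 2 h and 7.96 and 5.86 at 6 h. At 24 h it held 66.7 and 54.1 (log2 fold change 3.11, SE 0.40, adjusted p = 3.48e-06, edgeR). No earlier library came near the 24 h level. The Kank1 peak, in an intron of a gene for a cytoskeletal regulator on chromosome 19 from 25272681 to 25273485, held 11.6 and 12.9 at 6 h and 91.3 and 117 at 24 h (log2 fold change 3.07, SE 0.38, adjusted p = 3e-06, edgeR). The Fat3 peak, in an intron of a gene for an atypical cadherin on chromosome 9 from 16077732 to 16078068, held 11.6 and 2.35 at 6 h and 55.1 and 61.8 at 24 h (log2 fold change 3.06, SE 0.43, adjusted p = 1.47e-05, edgeR). The earlier libraries of these 2 peaks held at most 12.9 normalized counts.

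The other 9 rises lay nearest to Parm1, Nck2, Trp63, Tpm1, Tmem132c, Msx2, Chst11, Bnc2 and Nek6, with log2 fold changes between 2.53 and 2.80. Trp63 encodes the epithelial regulator p63, Tpm1 a tropomyosin, Msx2 a homeobox factor of limb and craniofacial tissue and Chst11 a sulfotransferase of chondroitin. The peak 26724 bp upstream of Trp63 held 14.7 and 11.7 normalized counts at 6 h and 72.5 and 100 at 24 h. The peaks nearest to Tmem132c, Msx2, Chst11 and Bnc2 lay over 100 kb from a start, so the link to the gene is by position alone. Of the 12 rises, 11 were late-only. The exception, near Msx2, was already gained at 6 h, where it held 21.4 and 14.1 against 4.68 and 2.66 in NT and 97.1 and 119 at 24 h.

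The early response was compared with the late step through 2 h against NT, which uses other libraries. At 2 h, 8480 peaks had been lost (5.1% of those tested) and 3194 gained (1.92%). The lost peaks had little signal left at 6 h, with a median of 13.8 normalized counts against 53.3 in NT, so that a further fall could hardly be measured. Their median log2 change was -0.24 between 6 h and 24 h (-0.237 and -0.212 in the replicates, SD 0.0176, n = 2). Of them 401, with a median of 60.9 normalized counts at 6 h, fell again (4.73%, against 4.49% of all peaks) and 58 rose (0.684%, against 2.92%). The gained peaks went back, with a median of -0.64 (-0.742 and -0.499, SD 0.172, n = 2). Of them 1015 fell (31.8%) and 51 rose (1.6%). Seen from the other side, 13.6% of the peaks that fell late had been gained at 2 h, and 73.8% had a log2 fold change above 0 at 2 h, against 52.2% of all peaks. Relative to NT the gained peaks had a median log2 fold change of 1.11 at 2 h, then 1.15 at 6 h, and finally 0.51 at 24 h, so that on the median they stayed above NT. Of the 1015 that fell, 190 were called below NT at 24 h and 28 above it. Without 24 h replicate 1, 8.99% of the peaks gained at 2 h fell, without 6 h replicate 2 18.9% fell, and with the replicate block 40.8% did.

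Some peaks lost early came back. The Ccn1 peak on chromosome 3 from 145651398 to 145651941, 1615 bp from the start of a gene for a matricellular protein induced by YAP, held 162 and 111 normalized counts in NT, 62.5 and 54.1 at 2 h and 68.0 and 49.3 at 6 h. At 24 h it held 146 and 130 (log2 fold change 1.24, SE 0.27, adjusted p = 0.00255, edgeR). Its 24 h libraries lay within the range of the NT libraries. A peak 1327 bp upstream of a start of Mdm2, the ubiquitin ligase that limits p53, held 55.3 and 52.6 in NT, 24.8 and 29.2 at 2 h, 32.4 and 19.9 at 6 h and 110 and 64.9 at 24 h (log2 fold change 1.74, SE 0.32, adjusted p = 0.000447, edgeR).

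Falls and rises differed in where they lay. Of all peaks tested 14.1% were promoter peaks, against 7.66% of the falls and 47.8% of the rises. Of the 23428 promoter peaks 572 fell (2.44%) and 2323 rose (9.92%). The rises at promoters were small, with a median log2 fold change of 0.83 from a median level of 155 normalized counts at 6 h, while the 2539 distal rises had a median of 1.33 from 17.7. The median change of all promoter peaks tested was 0.26, with 0.298 and 0.209 in the replicates (SD 0.063, n = 2). Promoter counts as a share of the library rose in both replicates alongside, as given above. The share of rises at promoters depended on single libraries. It was 11.8% without 24 h replicate 1 and 18.9% without 6 h replicate 2, and 64.7% without 24 h replicate 2. Of the 2323 promoter rises 116 were called without 24 h replicate 1, compared with 719 of the distal rises. With GC offsets 1344 of these 2323 promoter rises were called again, and with the replicate block all 2323.

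**Figure D3:**
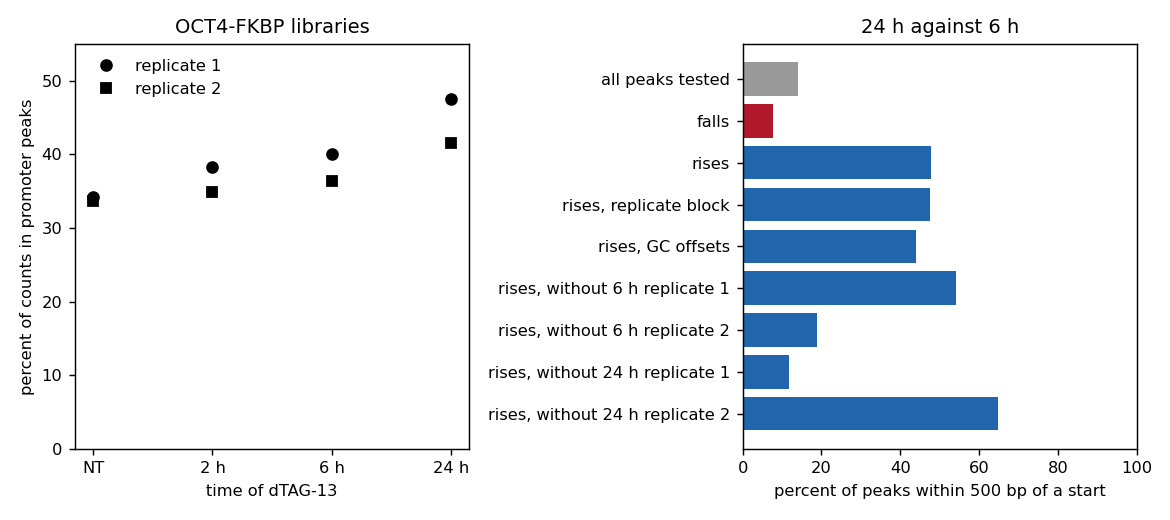
Left, percent of a library's counts in promoter peaks for the 8 OCT4-FKBP libraries by time (circle, replicate 1; square, replicate 2). Right, percent of peaks at promoters for all peaks tested (grey), falls (red) and rises (blue) of 24 h against 6 h, with the rises also under other settings. The promoter share of the counts is highest at 24 h in both replicates, and the promoter share of the rises ranges from 11.8% to 64.7% when 1 library is left out.

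Most of the falling peaks near pluripotency genes were distal, as were 6899 of all 7471 falls. Peaks were assigned to the nearest start of a protein-coding gene within 100 kb, and each count is read against the 4.49% of all peaks that fell and the 2.92% that rose. Both shares depend on how strong the peaks are. At 6 h the median level was 90.1 normalized counts for the falls, 57.3 for the rises and 21.9 for all peaks tested. In a fit limited to the 33328 peaks whose count never dropped below 10, 5758 fell and 4258 rose. Whether the lists differ from other peaks of similar level was not tested. Of 455 peaks near 20 naive pluripotency regulators 61 fell (13.4%) and 4 rose (0.879%), with a median log2 change of -0.37. The falls lay at 14 of these genes, with 21 of the 61 at Esrrb and 7 at Fgf4, and 44 of the 61 were late-only. Of 214 peaks near 15 general pluripotency factors and co-factors 20 fell (9.35%) and 2 rose, with a median of -0.24. Fgf4 belongs to this list too, so its 7 falls count in both. Of 237 peaks near genes of the formative and primed epiblast 28 fell (11.8%) and 2 rose, with a median of -0.20. Etv5 alone held 11 of these 28 falls, among 46 peaks. At their promoters 3 of 33 naive peaks, 2 of 21 general ones and 0 of 34 formative ones fell, against 2.44% of all promoter peaks. Without 24 h replicate 1 the falls numbered 15 in the naive list, 4 in the general list and 5 in the formative list. In the formative list 17 fell without 6 h replicate 2 and 18 without 24 h replicate 2.

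Esrrb had the most falling peaks of any gene, a count looked up after the values were seen. Of 57 peaks nearest to it 21 fell and 0 rose, and 19 of the falls were late-only. Besides the peak described above, one lies 101 bp from an annotated internal start, on chromosome 12 from 86503775 to 86504878. It held 403 and 443 normalized counts at 6 h and 69.6 and 150 at 24 h (log2 fold change -1.95, SE 0.30, adjusted p = 6.31e-05, edgeR). Another, from 86501618 to 86502563, held 722 and 702 at 6 h and 141 and 283 at 24 h. The promoter peak at the first start did not pass the test, with 140 and 107 at 6 h and 142 and 124 at 24 h (log2 fold change 0.11). The genes next in the count of falls were Msi2 (16 of 78 peaks), Smad7 (15 of 59) and Sept9 (14 of 60), of which Msi2 encodes an RNA-binding protein and Smad7 an inhibitor of TGF-beta signalling.

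The falls with the lowest p in the formative list lay near Lefty1, Dnmt3a, Fgf5 and Lefty2, 1 peak at each gene. A peak 10141 bp from Lefty1, which encodes a secreted inhibitor of Nodal, lies on chromosome 1 from 180924545 to 180925798 and held 368 and 286 normalized counts in NT, 306 and 227 at 2 h and 263 and 166 at 6 h. It held 33.3 and 23.2 at 24 h, below every earlier library (log2 fold change -2.91, SE 0.37, adjusted p = 3.44e-06, edgeR). A peak 4272 bp from the neighbouring Lefty2 went from 1240 and 840 at 6 h to 315 and 159 at 24 h (log2 fold change -2.13, adjusted p = 5.86e-05, edgeR). Fgf5, a growth factor of the primed epiblast, had a falling intronic peak, with 258 and 240 at 6 h and 82.6 and 47.9 at 24 h, while its promoter, at 82.0 and 80.3 against 122 and 80.3, did not pass the test. An intronic peak of the de novo DNA methyltransferase gene Dnmt3a was gained at 2 h, from 153 and 172 in NT to 342 and 272, and fell from 315 and 274 at 6 h to 81.2 and 108 at 24 h. Fgf4, a target that OCT4 and SOX2 activate together, fell at a peak by its start from 234 and 191 at 6 h to 100 and 94.2 at 24 h (log2 fold change -1.13, SE 0.22, adjusted p = 0.00079, edgeR).

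At Pou5f1 itself 4 of 6 tested peaks fell. The peak from 35503682 to 35506247 on chromosome 17, 1952 bp upstream of the start, held 1190 and 951 normalized counts in NT, 1430 and 1020 at 6 h and 758 and 514 at 24 h (log2 fold change -0.94, SE 0.26, adjusted p = 0.0174, edgeR). The peak 15469 bp upstream held 279 and 269 in NT and 423 and 374 at 2 h, a difference that did not pass the test, stood at 404 and 366 at 6 h and fell to 168 and 199 at 24 h (log2 fold change -1.07, SE 0.22, adjusted p = 0.00159, edgeR). The other 2 falls, 17662 bp and 9148 bp upstream, had log2 fold changes of -0.80 and -1.31.

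Sox2, Nanog and Cdx2 moved less in the late step. Near Sox2 3 of the 41 peaks tested within 100 kb fell, against 4.49% of all peaks. The 3 were distal, 18197 bp, 84696 bp and 94952 bp from a start, with log2 fold changes between -1.04 and -0.88. The Sox2 promoter peak did not pass the test. None of the peaks nearest to Nanog was called in the late step. The promoter of Nanog held 309 and 368 normalized counts in NT, 223 and 213 at 6 h and 138 and 154 at 24 h. Its 6 h and 24 h libraries did not overlap (log2 fold change -0.58, SE 0.23, adjusted p = 0.124, edgeR). Against NT it was called as lost at 6 h (log2 fold change -0.64, adjusted p = 0.0448, edgeR) and at 24 h (-1.21, adjusted p = 0.00011, edgeR). None of the peaks nearest to Cdx2, a regulator of trophectoderm, was called in the late step either. Its intronic peak 2354 bp into the gene was lost early, from 414 and 341 in NT to 174 and 195 at 2 h, and stood at 137 and 135 at 6 h and 151 and 110 at 24 h. Nanog lies on chromosome 6, whose share of counts differed between the replicates.

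**Figure D4:**
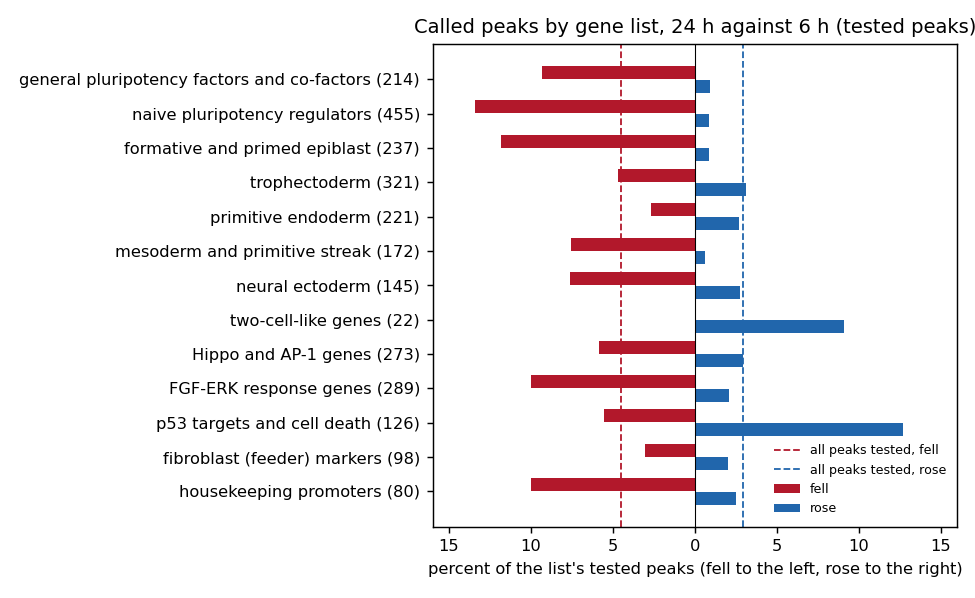
Percent of the tested peaks of each gene list that fell (red, to the left) or rose (blue, to the right) between 6 h and 24 h, with the number of tested peaks in brackets and the percent of all peaks tested as dashed lines (4.49% fell, 2.92% rose). The naive pluripotency regulators have the longest bar of falls (13.4%) and the p53 targets the longest bar of rises (12.7%). Some genes belong to several lists.

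Genes of the FGF-ERK response report on a kinase cascade that the medium's MEK inhibitor blocks. They also lost peaks, in the same share as housekeeping genes (8 of 80, 10.0%). Of 289 peaks near FGF-ERK genes 29 fell (10.0%) and 6 rose (2.08%), with a median of -0.26. Etv5, which is also in the formative list, held 11 of the 29 falls, so the same peaks count in both lists. Of the 289 peaks 6 fell without 24 h replicate 1 and 14 without 6 h replicate 2. The Spry2 peak on chromosome 14 from 105864491 to 105865816, near a gene for a feedback inhibitor of the cascade, was gained early, from 125 and 174 normalized counts in NT to 334 and 391 at 2 h. It held 337 and 463 at 6 h and went back to 116 and 154 at 24 h (log2 fold change -1.57, SE 0.28, adjusted p = 0.000307, edgeR), within or below the range of NT. The Spred2 and Spry1 peaks fell from 113 and 96.2 to 33.3 and 43.3 and from 122 and 164 to 58.0 and 55.6, and neither had been called before.

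The p53 targets and cell death genes were the list with the largest share of rises. Of 126 peaks 16 rose (12.7%) and 7 fell (5.56%), with a median of 0.086, and 13 of the rises were late-only. The rises numbered 4 without 24 h replicate 1 and 7 without 6 h replicate 2. Of the 16 rises 8 lay at 1 gene, Mdm2, where 8 of the 11 nearest peaks rose and 0 fell. The Mdm2 promoter held 307 and 207 normalized counts at 6 h and 541 and 442 at 24 h (log2 fold change 0.94, SE 0.22, adjusted p = 0.00482, edgeR). A peak 7040 bp upstream held 24.2 and 22.9 in NT, 45.9 and 26.7 at 2 h, 71.6 and 53.4 at 6 h and 187 and 147 at 24 h, and was called as gained at 6 h and again in the late step. The promoter of Cdkn1a, the cell cycle inhibitor that p53 induces, held 75.3 and 75.6 at 6 h and 141 and 91.1 at 24 h without passing the test (adjusted p = 0.0986, edgeR). Trp53inp1, a p53-induced gene of stress responses, had an intergenic peak that rose from 18.4 and 14.1 to 78.3 and 61.8 (log2 fold change 2.11, adjusted p = 0.00021, edgeR). The list also held falls, such as the Gtse1 peak, which went from 463 and 420 to 94.2 and 105.

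The other lineages had shares nearer to the background. Near trophectoderm genes 15 of 321 peaks fell (4.67%) and 10 rose (3.12%), with a median of 0.0059. The intronic peak of Tead4, a factor needed for trophectoderm, was gained at 2 h, from 346 and 453 normalized counts in NT to 681 and 716. It held 526 and 583 at 6 h and fell to 109 and 218 at 24 h (log2 fold change -1.77, SE 0.26, adjusted p = 2.99e-05, edgeR). Near Tfap2c a pair of distal peaks fell, from 91.2 and 133 to 39.1 and 29.3 and from 76.5 and 97.3 to 17.4 and 37.1.

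Near primitive endoderm genes 6 of 221 peaks fell and 6 rose (2.71% each). A peak 74314 bp upstream of Gata6, the regulator of that lineage, had been gained at 2 h and rose again late, with 16.4 and 7.98 normalized counts in NT, 27.6 and 25.5 at 2 h, 49.6 and 35.2 at 6 h and 110 and 136 at 24 h (log2 fold change 1.54 for the last step, SE 0.28, adjusted p = 0.000445, edgeR). The Gata6 promoter held 38 and 32.2 at 6 h and 36.2 and 27.8 at 24 h and did not pass the test. Near mesoderm genes 13 of 172 peaks fell (7.56%) and 1 rose, and near neural ectoderm genes 11 of 145 fell (7.59%) and 4 rose. The Eomes peak 6738 bp upstream of the gene, which encodes a regulator of both trophectoderm and mesendoderm, fell from 71.6 and 107 to 23.2 and 32.4. It had started from 172 and 239 in NT and was already called as lost at 6 h (log2 fold change -1.20, adjusted p = 0.000805, edgeR).

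The Hippo and AP-1 genes had 16 falls and 8 rises among 273 peaks. Fibroblast markers, chosen for feeder cells that a culture could hold, had 3 falls and 2 rises among 98, and their 12 promoter peaks summed to 1580 and 1399 normalized counts at 6 h and 2031 and 1636 at 24 h. Two-cell-like genes had 22 tested peaks, of which 0 fell and 2 rose. Around housekeeping genes 8 of 80 peaks fell (10.0%) and 2 rose. Of the 21 peaks at their promoters 0 fell and 2 rose, those of Tbp and Rps18, and the Gapdh and Actb promoters held 1110 and 895 and 760 and 479 at 6 h and 903 and 837 and 780 and 609 at 24 h. A share of falls of 10.0% therefore also occurred near genes of general function.

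Sequence motifs differed between the classes within the 200 bases at the summit, searched on both strands, where one window can match several overlapping motifs. The ZIC pattern CAGCAGG matched 24.8% of the falls and 12.8% of all peaks, the KLF pattern CCNCACCC 22.8% and 13.3%, and the ESRRB/NR5A2 pattern CAAGGTCA 9.84% and 4.31%. In each of 5 bins of GC content the share of falls with these patterns was above that of all peaks. The SOX pattern, CATTGT or CTTTGT, matched 33.2% and 25.5%. The AP-1 pattern TGANTCA matched 9.88% and 6.98%, and that of TCF/LEF factors, CTTTGAT, 5.78% and 3.71%. Shares of OTX2, searched as TAATCC, were 5.7% and 5.62%. The POU octamer, ATGCAAAT or ATGCTAAT, matched 2.76% of the falls and 3.43% of all peaks, with the order turned over whole peaks (8.93% and 8.23%), against 19.4% of the peaks lost at 2 h. The SOX-POU core TTGTNATG, a shorter pattern added because the full composite matched 0.0373% of windows, matched 3.03% of the falls, 2.91% of all peaks and 14.2% of those lost at 2 h. Among the late-only falls the octamer matched 1.94% and the core 2.29%, and the full composite matched 0.0937% of all falls. A match or its absence says nothing about binding. The CTCF pattern matched 0.629% of the falls and 3.74% of all peaks.

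The rises carried patterns common at promoters. The SP pattern GGGCGG matched 31.5% of them and 13.4% of all peaks, NRF1 4.66% and 0.779%, ETS (CCGGAAGT) 4.33% and 0.935% and TFAP2 (GCCNNNGGC) 15.9% and 8.83%. Within promoter peaks SP matched 54.5% of the rises and 38.3% of all, NRF1 9.26% and 3.7%, and ETS 8.48% and 3.38%. Among the 2539 distal rises SP matched 10.3% and ETS 0.515%, against 9.3% and 0.533% of all distal peaks. The TEAD pattern ACATTCC was found in 8.0% of the distal rises and in 4.72% of distal peaks. The GATA pattern AGATAA was found in 9.5% and 6.79%, and that of FOX factors, TGTTTAC, in 4.12% and 2.73%. Shares of NFY, searched as CCAATC, were 7.33% and 7.52%. TFAP2 matched 11.9% against 7.65% and CTCF 6.81% against 4.01%. A p53 element, added after the Mdm2 peaks were seen, matched 5.32% of the rises and 6.28% of all peaks, with the order turned over whole peaks (23.0% and 22.6%) and among distal peaks (7.92% of rises and 6.69% of all).

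**Figure D5:**
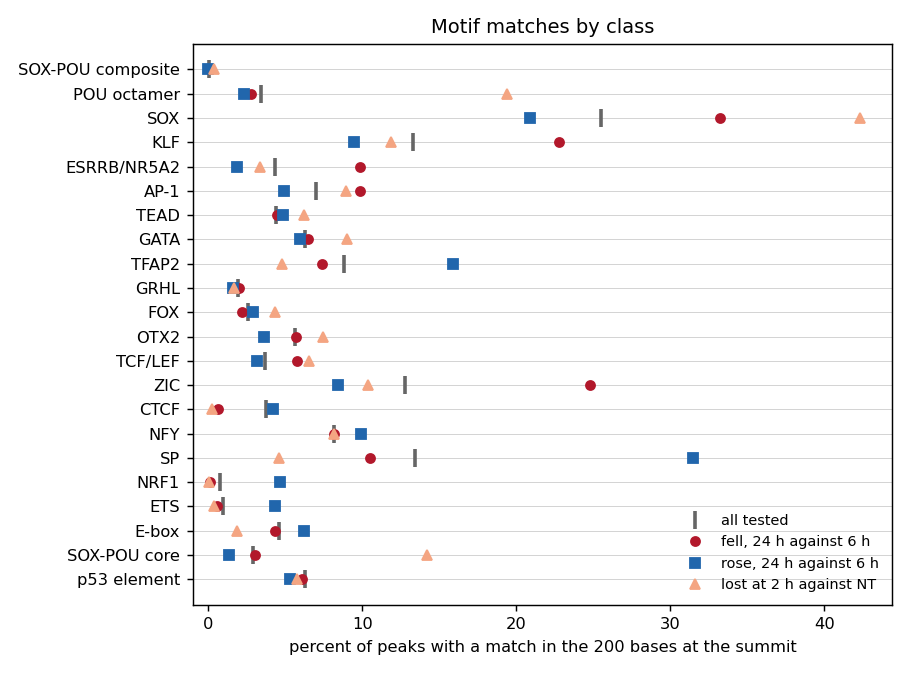
Percent of peaks with a match to each of 22 motifs in the 200 bases at the summit, for all peaks tested (grey bar), falls (red circle) and rises (blue square) of 24 h against 6 h and peaks lost at 2 h against NT (orange triangle). ZIC, KLF and ESRRB/NR5A2 stand higher in the falls than in all peaks, SP and TFAP2 in the rises, and the POU octamer and SOX-POU core in the peaks lost at 2 h.

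Few peaks were called over the same step in the other lines. In SOX2-FKBP cells 133 peaks fell (0.0799%) and 35 rose (0.021%) between 6 h and 24 h. The 133 included the peaks described above near Dynlt1b (log2 fold change -2.59, adjusted p = 0.003, edgeR), Eomes (-1.84, adjusted p = 0.0127), Lefty1 (-2.01, adjusted p = 0.0243) and Lefty2 (-1.59, adjusted p = 0.0313). The Dusp1 peak and the Esrrb peak at 86497059 were not called there. At the Dusp1 peak the difference between the OCT4-FKBP and SOX2-FKBP changes did not pass the test (-2.84, adjusted p = 0.0854, edgeR). In NANOG-FKBP cells 0 peaks were called by edgeR, with 7994 at an unadjusted p under 0.05. DESeq2 called 31 falls and 7 rises in NANOG-FKBP cells, and the replicate block gave 331 and 203. The NANOG-FKBP replicate 2 libraries stood apart, with 3272168 counts and a mitochondrial share of 13.2% at 6 h and 2767190 counts and 17% at 24 h, and without them, the 2 h library included, edgeR called 0 peaks as well (7026 at an unadjusted p under 0.05). These lines share no library with OCT4-FKBP. Over the OCT4-FKBP falls the median change was -0.36 in SOX2-FKBP cells (-0.32 and -0.359 in the replicates, SD 0.0275, n = 2), with 82.6% of the peaks below 0 against 51.6% of all peaks. In NANOG-FKBP cells it was -0.13 (-0.158 to -0.0857, SD 0.0374, n = 3). Over the rises it was 0.25 and 0.13. The medians of the other lines thus had the same sign. Their smaller size cannot be read as a difference between lines, since the peaks were chosen by their change in OCT4-FKBP. With the replicate block 2135 peaks fell and 828 rose in SOX2-FKBP cells.

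The difference between the OCT4-FKBP and SOX2-FKBP changes was tested itself. It was more negative in OCT4-FKBP cells at 37 peaks (0.0222%) and more positive at 3 (0.0018%), and with the replicate block 2867 peaks differed. The lines differ in parental background, so that line and factor cannot be told apart. The Esrrb peak at 86497059 was among the 37, with a change of -3.04 in OCT4-FKBP and -0.43 in SOX2-FKBP cells (difference -2.61, adjusted p = 0.00484, edgeR). The peak with the lowest p lies 983 bp from a start of Plec, which encodes the cytoskeletal linker plectin, with -2.71 in OCT4-FKBP and 0.25 in SOX2-FKBP cells (difference -2.96, adjusted p = 0.000542, edgeR). Without 24 h replicate 1, 3 peaks differed, and without 6 h replicate 2, 18 did. Leaving out the 3 NANOG-FKBP libraries with a high mitochondrial share, which enter through the shared estimate of the spread, 143 differed.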

How the data were processed

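ATACseq was performed on OCT4-FKBP, SOX2-FKBP and NANOG-FKBP cells. From reads mapped to mm10 (BWA 0.7.17-r1188, SAMtools 1.10, with duplicates taken out by Picard 2.12.0), the authors derived 1 peak set with MACS2 over pooled libraries and deposited the raw count of fragments in each peak of every library. The deposited peak list gives a fold enrichment (a ratio) and a −log10 q-value per peak, from which only positions and summits were used. Peaks (184964) were annotated with GENCODE and tested if over 10 counts were present in over 6 of the 27 libraries. Counts were tested with edgeR 4.0.16 in R 4.3.3 (TMM, glmQLFit, glmQLFTest); DESeq2 1.42.0 was an alternative. The SE is the log2 fold change divided by the square root of F, an approximation. Normalized counts are TMM-scaled. Same-numbered OCT4-FKBP libraries deviated together in all 6 pairs of times (correlation 0.33 to 0.6), so the numbers were taken to pair them. The pairing enters only the values given per replicate and the fits with the replicate block. The fit behind the reported counts, SEs and adjusted p-values held no replicate term. Replicates differed by more than sampling noise (chi-square per degree of freedom 3.27 to 5.73). Totals of the OCT4-FKBP libraries ranged from 6378962 to 17575631 counts. Named peaks are the 12 largest falls and rises (mean of at least 50, no overlap, 1 per gene), up to 4 called peaks and 3 promoters per gene list, and the peaks nearest to Pou5f1, Sox2, Nanog and Cdx2. Esrrb, Mdm2 and genes by number of peaks were looked up after values were seen, and chromosome offsets, a fit without 3 NANOG-FKBP libraries, the SOX-POU core, the p53 element and the Esrrb window were added then too. Members and lists were chosen with earlier results of these data known. The tests were tested on simulated data. The 14 samples without counts were not analysed here.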

Additional observations from a re-analysis of the deposited data

Results flagged for a closer look

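The change between 6 h and 24 h differed between OCT4-FKBP and SOX2-FKBP cells at 40 peaks by the test of the difference itself. It was more negative in OCT4-FKBP cells at 37 and more positive at 3. Peaks named by the rule at Celf4, Esrrb and Nek6 were among them. The difference in log2 fold change, OCT4-FKBP minus SOX2-FKBP, was -2.91 at the Celf4 peak, where the changes were -3.61 and -0.70 (adjusted p = 0.0278, edgeR). It was -2.61 at the Esrrb peak. At the Nek6 peak it was 2.34, from changes of 2.53 and 0.19 (adjusted p = 0.0462, edgeR). No group of libraries was large enough to test for a library standing apart.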

How the results depend on the processing

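With the replicate block, 14393 peaks fell and 12988 rose, 10975 rises were late-only and 2867 peaks differed between OCT4-FKBP and SOX2-FKBP. With the block and GC offsets these were 13428, 10765, 9060 and 2781. The block moved the late-only falls and both medians by less than the criterion. Fitting only the 8 OCT4-FKBP libraries gave 4030 falls, 1841 rises, 3013 late-only falls and 1675 late-only rises, and only the 4 libraries of the 2 times gave 4270 falls and 1570 rises. That fit has no early times, so the late-only counts and medians could not be had from it, and the line difference not from either. Total counts gave 2345 rises, 2147 late-only rises and 88 differing peaks. Thinning the OCT4-FKBP libraries gave 3194 rises and 15 differing peaks. Requiring a log2 fold change of 1 left 2586 rises and 2274 late-only rises, and the stricter late-only rule left 1590 falls and 2327 rises. Differing peaks numbered 104 with DESeq2, 18 with its size factors, 79 with loess offsets, 117 with 10 counts in every library and 19 without a filter. The median of peaks lost at 2 h was -0.20 with DESeq2, -0.18 with its size factors, -0.20 with loess offsets, -0.22 without a filter, -0.22 with the fold threshold, -0.27 after thinning, -0.31 with the block and GC offsets, -0.32 with GC offsets, -0.34 with total counts and -0.38 with 10 counts in every library.

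Leaving out 1 library in turn gave 1628 to 6542 falls, 867 to 5855 rises, 1068 to 4686 late-only falls, 754 to 5547 late-only rises, 3 to 53 differing peaks, and medians of -0.3346 to -0.1977 for peaks lost and -0.8383 to -0.4418 for peaks gained at 2 h. The lone library left is assumed to vary like the other groups.

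Counted over whole peaks, which are wider in both called classes than among all peaks, the share of a motif minus that of all peaks changed sign in the falls for E-box (2.72 percentage points), FOX (1.46), NFY (5.48), POU octamer (0.704), SP (2.1), TFAP2 (5.5) and the p53 element (6.61), and in the rises for GATA (4.81), GRHL (1.42), KLF (2.3), OTX2 (0.764), SOX (3.7), TCF/LEF (0.31) and the p53 element (0.411). Chromosome offsets, GC offsets without the block, loess offsets and DESeq2's size factors moved neither count of OCT4-FKBP falls or rises beyond 1.5 times. In SOX2-FKBP cells 200 peaks fell with loess offsets, and 12 rose with DESeq2, 11 with total counts, 53 after thinning and 4 with 10 counts in every library. Without the 3 NANOG-FKBP libraries of high mitochondrial share, an alternative chosen after seeing the data, 8547 peaks fell and 5672 rose in OCT4-FKBP cells, 200 fell in SOX2-FKBP cells, 143 differed between these lines and the median of peaks lost at 2 h was -0.26. Precision at 24 h was limited by the totals of 7790459 and 6378962 counts.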
